A study of Mus musculus with 8 samples.

Results

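The comparison described here set a mouse mammary epithelial cell line that carries dominant-negative Brg1 (DNBrg1) against its parental line, with both kept in tetracycline. It rests on 2 of the 8 DNase-seq libraries of the study, 1 for each line. The hotspots of the 2 libraries, regions where DNase I cuts are concentrated, were merged where they overlapped by at least 1 bp. This gave 38121 sites, of which 25734 were listed in both libraries, 3119 in the DNBrg1 library and 9268 in the parental library only.

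The study mapped open chromatin in 3134 cells, a mouse mammary epithelial line, and in derived lines that carry inducible dominant-negative Brg1, CHD4 or Snf2h. The parental cells compared here were 3134 cells plated for 48 h with 5 µg/ml tetracycline, and the DNBrg1 cells were treated in the same way. All libraries came from cells plated in medium with charcoal-dextran treated serum. Tetracycline represses the transgene in this system, and its removal for 48 h induces the dominant-negative protein. So in this comparison no protein was induced by withdrawal, and the 2 libraries differ by line. The labels describe how the dominant-negative Snf2h and CHD4 genes were built and integrated by retroviral vector into cells that hold the tetracycline transactivator. Not given in the sources used here are the Brg1 construct, whether the DNBrg1 line is 1 clone, and whether the parental cells carry the transactivator. Residual protein in the presence of tetracycline was not analysed here.

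DNase I cuts DNA most readily where nucleosomes have been displaced, which happens at active promoters, enhancers and insulators. Brg1 powers SWI/SNF complexes, which use ATP to slide and evict nucleosomes and keep many enhancers open. A dominant-negative ATPase enters its complex and impairs remodeling there. CHD4 and Snf2h are the ATPases of NuRD and of ISWI complexes, and lines that carry dominant-negative forms of them serve below as outside libraries.

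The value of a site was its peak density, the highest tag density of a hotspot on the scale deposited for its library. Each group has 1 library, so the differences cannot be set against replicates, and p-values are not given. Every peak density was a whole multiple of 1 step per library, 0.586 in DNBrg1 and 0.31 in parental cells, which gives the tags behind a value. A median hotspot rested on 65 tags in the DNBrg1 and 105 tags in the parental library. If both were scaled to 1 target, the parental library was 1.89 times as deep. The lists also began at different densities, 16.4 in DNBrg1 and 13.02 in parental cells. Intervals are exact 95% intervals, and those on a median run between order statistics. All cover counting error or the spread between sites only, because fragments were not marked with molecular identifiers and need not be independent.

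Most open sites were shared between the 2 lines, and their densities were of like size. The DNBrg1 list held 29379 hotspots, and 89.4% of them (89.0 to 89.7) overlapped a parental hotspot. Of the 35083 parental hotspots, 73.6% (73.1 to 74.0) overlapped a DNBrg1 hotspot. A large part of the sites in the parental list alone lay where the DNBrg1 list does not reach: 3764 of the 9268 (40.6%) were below the lowest density that list holds. Across the shared sites the log2 ratio of DNBrg1 over parental had a median of -0.015 as deposited, with quartiles of -0.34 and 0.30. Spearman's correlation of density over these sites was 0.86. Sites share their library and are not independent, so this describes the 2 libraries alone.

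For all that follows the median ratio of the shared sites was set to 1, a move of under 0.1 on the log2 scale. A site of 1 list was compared with the lowest density that the other list holds, so its ratio is a bound. On this scale 1793 of the 38121 sites (4.7%) were at least 2-fold lower in DNBrg1 and 1474 (3.87%) at least 2-fold higher. As deposited, the counts were 1870 (4.91%) and 1388 (3.64%). Some of these sites lay in long stretches of chromosome in which most sites had moved the same way, and others stood alone among unmoved neighbours. These kinds of difference were separated by taking the median log2 ratio of the shared sites in windows of 10 Mb.

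Of 275 windows, 248 held at least 20 shared sites. In 44 of them (17.7%) the median was at least 0.3 lower in DNBrg1, and in 14 (5.65%) at least 0.3 higher. The windows nearest the threshold stood at -0.30 inside and -0.29 outside on the lower side, and at 0.34 and 0.30 on the higher side. The lower windows lay on 9 chromosomes and the higher on 5, while 7 chromosomes held none. Most of the lower windows adjoined each other: 37 of the 44 fell in 8 blocks of neighbouring windows, and 7 of the 14 higher windows in 3 blocks. Blocks and windows were chosen by their median in this pair, so their values here are a description. With only the sites of a density of at least 40 in DNCHD4 cells with tetracycline, a setting chosen after the data were seen, 45 windows were lower and 5 higher.

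**Figure D1:**
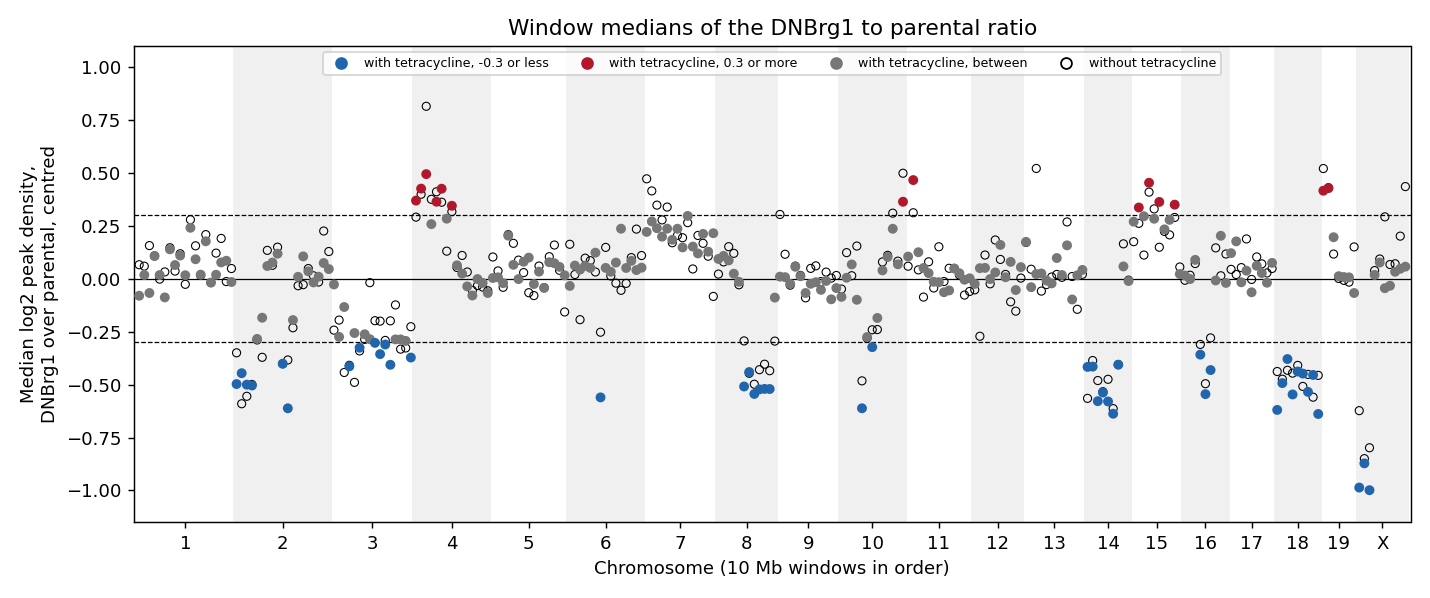
Median log2 ratio of peak density, DNBrg1 over parental, in windows of 10 Mb ordered along the chromosomes, with the median of all shared sites at 0. Filled points are the libraries with tetracycline, coloured at -0.3 or less and at 0.3 or more (dashed lines), and open circles the libraries without it. All tested windows of chromosome 18 lie below the lower line, and the lowest points are those of chromosome X, down to -0.999.

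Chromosome 18 was shifted over its whole length. Its 9 windows ran from -0.64 to -0.38, and the 558 shared sites in them had a median of -0.53 (-0.56 to -0.46), which is a density of 0.694 times the parental one. On chromosome 14 the block from 10 to 80 Mb had a median of -0.53 (-0.57 to -0.50, 586 sites). Chromosome 8 was lower from 60 to 120 Mb, at -0.51 (-0.54 to -0.46, 564 sites). These 3 blocks were the longest, and within each the windows lay close to each other: from -0.54 to -0.44 on chromosome 8 and from -0.64 to -0.41 on chromosome 14.

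Chromosome 2 held 2 separate lower blocks. The block from 0 to 40 Mb had a median of -0.50 (-0.53 to -0.45, 498 sites), and that from 90 to 110 Mb of -0.52 (-0.63 to -0.41, 128 sites). The remaining lower blocks were smaller in size of shift or in number of sites. Chromosome 16 from 30 to 60 Mb stood at -0.38 (-0.44 to -0.34, 294 sites) and chromosome 3 from 80 to 120 Mb at -0.33 (-0.37 to -0.31, 565 sites). The start of chromosome X, from 0 to 20 Mb, had the deepest shift of any block, at -0.88 (-1.01 to -0.78), but from 73 sites. A further window of chromosome X, from 30 to 40 Mb, was at -0.999, and the window between held too few shared sites to be tested.

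The higher blocks lay on chromosomes 4 and 19 and stood at 0.38 to 0.42. Chromosome 4 had 1 from 0 to 30 Mb, at 0.41 (0.35 to 0.50, 147 sites), and 1 from 40 to 60 Mb, at 0.38 (0.33 to 0.45, 315 sites). The window that parts them, from 30 to 40 Mb, was at 0.26, under the threshold. Chromosome 19 was higher from 0 to 20 Mb, at 0.42 (0.37 to 0.46, 347 sites), or 1.33 times the parental density.

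On 3 chromosomes a broad shift lay near the threshold and was only partly counted. All 16 tested windows of chromosome 3 were below 0, and 14 of them at -0.2 or lower, but only 7 passed -0.3. All 10 windows of chromosome 15 were above 0 and 9 at 0.2 or more, and its 4 counted windows did not adjoin. Chromosome 7 had 14 windows, all above 0, with 8 at 0.2 or more and the highest at 0.30, so none was counted. By contrast, no window of chromosomes 9, 12, 13 or 17 reached 0.2 in either direction.

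The other counted windows stood alone. On the lower side they included chromosome 10 from 40 to 50 Mb at -0.61 (48 sites) and chromosome 6 from 60 to 70 Mb at -0.56 (26 sites). On the higher side they included chromosome 11 from 10 to 20 Mb at 0.47 (36 sites) and chromosome 10 from 120 to 130 Mb at 0.36 (135 sites). Both directions thus occurred on chromosome 10.

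The libraries of the same lines without tetracycline gave a separate reading of these windows, since they share no library with the first pair. The dominant-negative protein is induced there, so they are not a replicate. All 44 lower windows were below 0 in that pair as well, and 35 of them at -0.3 or lower, where 15.9% of all windows were. The lone window of chromosome 6, at -0.25 there, was not among the 35. All 14 higher windows were above 0, and 10 of them at 0.3 or more, against 8.73% of all windows. Of the 190 windows not counted with tetracycline, 15 passed the threshold without it. Over the 248 windows the medians of the 2 pairs had a Pearson correlation of 0.90 and a Spearman correlation of 0.80. Windows of a chromosome are not independent, and the 2 pairs share their cell lines.

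The blocks had like medians in the 2 tetracycline states. Without tetracycline chromosome 18 stood at -0.46, the chromosome 14 block at -0.50 and the chromosome 8 block at -0.44. The chromosome 2 blocks stood at -0.51 and -0.39 and the start of chromosome X at -0.77. The lower block that moved most in proportion was that of chromosome 3, which went from -0.33 with to -0.22 without tetracycline. The higher blocks of chromosome 4 stood at 0.41 and 0.40 and that of chromosome 19 at 0.50. Over all lower blocks the median was -0.47 with (3266 sites) and -0.43 without tetracycline, and over all higher blocks 0.41 (809 sites) and 0.43. Sites outside the blocks stood at 0.037 and 0.047.

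The same windows were read in other pairs of libraries. In DNCHD4 over parental cells, both with tetracycline, none of 260 windows reached 0.3, and the windows counted here ranged from -0.22 to 0.16. Parental cells without over with tetracycline also had none of 255. With DNCHD4 in place of the parental library, DNBrg1 was lower in 43 of the 44 lower windows and higher in 11 of the 14 higher windows by at least 0.3. That ratio shares the DNBrg1 library with the main one. The DNSnf2h library departed from the parental one in its own way, with 36 lower and 59 higher of 241 windows. In DNBrg1 cells without over with tetracycline, 2 of 253 windows were lower and 6 higher.

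A block moved as a whole, with its sites keeping about the spread they had elsewhere. The middle 50% of shared sites spanned 0.57 on the log2 scale in the lower blocks, 0.48 in the higher blocks and 0.58 outside. In the lower blocks 84.1% of shared sites were below 0, and in the higher blocks 87.8% were above 0. Outside the blocks 46.3% were below 0. The same regions differed in how many sites were listed at all: 62.1% of the parental sites in lower blocks were also listed in DNBrg1, against 75.3% outside and 83.8% in higher blocks. A site under 16.4 cannot be listed in DNBrg1, so listing and density are not independent measures.

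**Figure D2:**
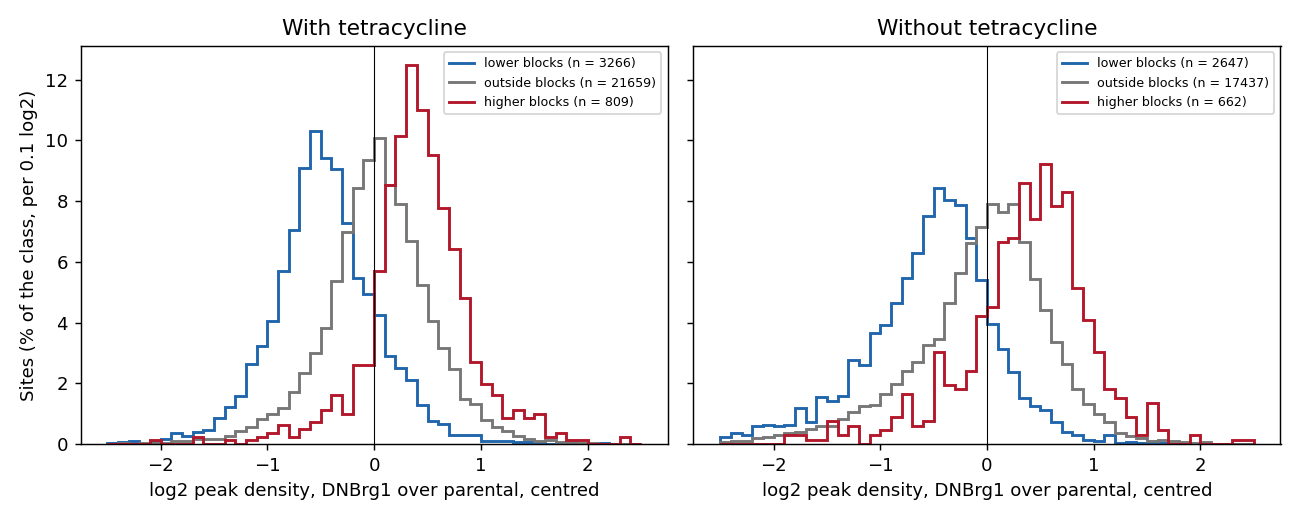
Share of shared sites, in percent per 0.1 log2, by log2 ratio of peak density, DNBrg1 over parental, with (left) and without tetracycline (right), with the blocks fixed in the libraries with tetracycline. With tetracycline the lower blocks peak near their median of -0.47, sites outside near 0.037 and the higher blocks near 0.41, and the order is the same without it.

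The shift was present among weak and strong sites. Sites were placed in 3 classes by their density in DNCHD4 cells with tetracycline, a library outside the comparison, with class limits at 33.5 and 74.1. In lower blocks the median stood below that of sites of the same class outside by 0.39 in the weakest, 0.48 in the middle and 0.50 in the strongest class. In higher blocks it stood above by 0.31, 0.41 and 0.35. Weak sites in general had higher ratios, with a median of 0.25 outside the blocks in the weakest class, where shared sites are those that passed the higher threshold of the DNBrg1 list.

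Several block edges were placed alike in the 2 tetracycline states. For each inner edge the best single step in the log2 ratio was sought among the shared sites of the windows on either side, and the edges named here were chosen after their values were seen. Such a step falls between neighbouring sites whether the change is abrupt or gradual, so the intervals do not measure how sharp an edge is. On chromosome 2 the median fell from 0.19 to -0.40 between neighbouring shared sites at 84.672 and 84.700 Mb. On chromosome 16 it fell from 0.18 to -0.34 between 25.377 and 25.408 Mb. In both cases the pair without tetracycline put the step in an overlapping interval, with a size of -0.66 and -0.48 against -0.58 and -0.52 with tetracycline.

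Some other edges were nearly as close in the 2 pairs. The end of the second chromosome 2 block lay between 117.937 and 117.976 Mb, and 50.1 kb away without tetracycline. The end of the chromosome 8 block lay between 122.907 and 122.941 Mb, and 147 kb away. On chromosome 16 the far end rose from -0.43 to 0.41 between 62.787 and 62.847 Mb, and lay 176 kb away. The edges of the chromosome 3 and chromosome 14 blocks and the far ends of the second chromosome 4 block and the chromosome 19 block were not placed alike: there the 2 pairs differed by 3809 to 8885 kb. At some edges the best step lay between 2 shifted levels and does not mark the end of a shift. It went from -0.73 to -0.51 at the chromosome 8 start, from 1.08 to 0.34 at the start of the second chromosome 4 block, and from -0.81 to -0.99 at the chromosome X end.

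The blocks held a larger share of the 2-fold differences than of the sites. Lower blocks held 14.2% of all sites and 565 of the 1793 sites at least 2-fold lower, or 31.5% (29.4 to 33.7). Higher blocks held 3.00% of all sites and 127 of the 1474 sites at least 2-fold higher, or 8.62% (7.23 to 10.2). Put as rates, 10.5% of sites in lower blocks were 2-fold lower against 3.83% of sites elsewhere. The blocks were defined on the same ratios, so this excess follows in part from their definition.

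To find sites that differed beyond their surroundings, the median of the window was subtracted. Where a window held too few shared sites to be tested, the median of its whole chromosome was subtracted instead. On chromosome 14 that median was -0.47, but the tested windows from 100 Mb on stood at 0.058 and -0.011. In untested windows there, a lower site needs a larger difference to be counted, and a higher site gets a larger ratio. The effect on the counts was not tested separately. A site was counted as a single-site difference when it was at least 2-fold apart before and after. There were 1202 such sites lower in DNBrg1 (3.15%) and 1071 higher (2.81%). Of the lower ones 632 were listed in both libraries (2.46% of the shared sites) and 570 in parental cells only. Of the higher ones 474 were listed in both (1.84%) and 597 in DNBrg1 only. The sites just inside and just outside the 2-fold limit had log2 ratios of -1.002 and -0.9999 on the lower side and of 1 and 0.9992 on the higher, so the limit falls in a continuum.

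With the window median subtracted, the rates in the blocks came near those elsewhere, which follows from the centring. Single-site differences were lower at 2.52% of the sites in lower blocks and at 3.31% of sites elsewhere. They were higher at 3.41% of sites in higher blocks and at 3.14% elsewhere. Of the 591 lower sites that did not remain, 429 lay in lower blocks, and of the 403 higher sites that did not remain, 88 lay in higher blocks. The spread over all shared sites narrowed only from an SD of 0.54 to 0.49, against a median counting error of 0.21 per site. Most of the site-to-site spread was therefore not in the windows.

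**Figure D3:**
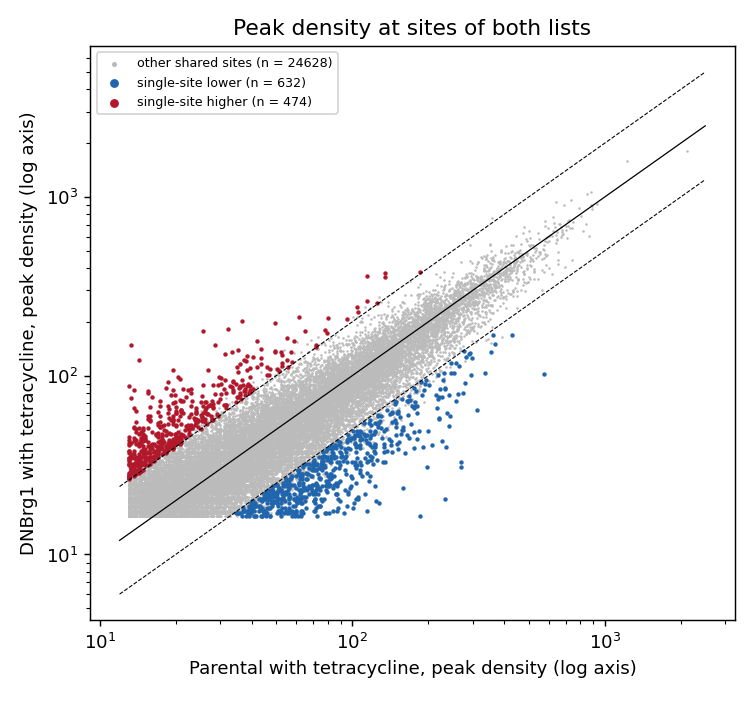
Peak density of the 25734 shared sites in parental (horizontal) and DNBrg1 cells (vertical), both with tetracycline and on log axes. The solid line marks equal densities as deposited, where the median ratio is 0.99, and the dashed lines are 2-fold from equality. The 632 lower and 474 higher single-site differences are coloured; the higher ones crowd at low parental density and the lower ones spread over a wider range.

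Each ratio of a site in both lists has an interval from its tags. Of the 632 lower sites in both lists, 219 had an interval wholly beyond 2-fold, and of the 474 higher ones 129 did. The same counts chose the sites, so these numbers describe the precision of the ratios between the 2 libraries.

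Lower and higher single-site differences were unlike in the strength of the site in other lines. Against density in DNCHD4 cells with tetracycline, lower differences made up 0.0778% of sites from 13 to 20, 7.17% from 40 to 80 and 4.11% at 160 or more. Higher differences went the other way, from 3.52% of the sites from 13 to 20 to 0.281% at 160 or more. These classes leave out sites under 13 and sites that DNCHD4 cells with tetracycline do not list. Listed there were 1201 of the 1202 lower but only 757 of the 1071 higher sites. No listed DNBrg1 density is under 16.4, so any site needs a parental density of 33.1 to be called lower, also when both libraries list it. The near absence of lower differences among weak sites was thus largely set by where the DNBrg1 list begins. Likewise any site needs a DNBrg1 density of 25.8 to be called higher. The contrast in strength is therefore in part a matter of the list minima.

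Nearly all lower sites were also listed in the DNCHD4 line. Of the 1202, 1201 (99.9%) were listed in DNCHD4 cells with tetracycline, where 95.3% of all sites and 99.7% of the shared sites were. In all 6 libraries of other lines 73.5% of the lower sites were listed, against 40.3% of all sites and 54.4% of the shared sites. Of the 570 lower sites listed in parental cells only, 234 were listed in all 6 and in neither DNBrg1 library. Of all 9268 sites of that listing, 867 were. Of the higher sites, 757 of the 1071 (70.7%) were listed in DNCHD4 cells with tetracycline, and 12.04% in all 6 libraries of other lines. Of the 597 higher sites listed in DNBrg1 only, 113 were in both DNBrg1 libraries and in none of the others, against 291 of all 3119 sites of that listing. The parental library with tetracycline is among the 6 and its densities helped to choose the sites, strong there for the lower set and weak or unlisted for the higher, so these shares are a description.

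Most single-site differences recurred in direction in the pair without tetracycline. Of the lower sites, 505 were listed in both libraries of that pair, and 471 of them (93.3%) were lower in DNBrg1, against 51.6% of the shared sites as a whole. At least 2-fold lower were 334 (66.1%), against 8.57%. A further 663 of the 1202 lower sites (55.2%) were listed there in parental cells only, against 18.9% of all sites. For the 570 that were listed in parental cells only with tetracycline the share was 74.2%, against 40.5% of all sites of that listing. Across that pair 8.6% of all sites met the single-site rule on the lower side.

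Higher sites also recurred in direction, with smaller ratios where both libraries without tetracycline listed them. Of 471 listed in both libraries without tetracycline, 393 (83.4%) were higher in DNBrg1, against 47.8% of shared sites. At least 2-fold higher were 146 (31.0%), against 2.40%. A further 356 of the 1071 (33.2%) were listed there in DNBrg1 only, against 5.89% of all sites, and 179 (16.7%) in neither library, against 14.6%. For the 597 that were listed in DNBrg1 only with tetracycline the first share was 50.1%, against 33.6% of all sites of that listing. Where both libraries without tetracycline listed such a site, 88% of the single-site differences and 83.1% of all sites of that listing were higher. Over all sites of that pair the higher single-site rule was met by 2.81%. The median log2 ratio without tetracycline was -1.38 at the lower and 0.58 at the higher sites that were listed in both. To be listed in both, a higher site needs at least 10.04 in parental cells and a lower site at least 9.185 in DNBrg1 cells. The higher sites listed in DNBrg1 cells there had a median density of 22.45, and the lower sites listed in parental cells 39.39. The list minima thus limit the 2 medians unequally, and sites of 1 list have no such ratio.

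The largest lower difference in both lists was at chr4:81616013-81617030 on mm9, a site of 1017 bp. Its peak density was 232 in parental cells with and 191 without tetracycline, 305 with and 151 without in DNCHD4 cells, and 97.5 and 44.9 in DNSnf2h cells. In DNBrg1 cells it was 20.5 with and 14.3 without. Both DNBrg1 values lay under those of the other 6 libraries, of which DNSnf2h cells without tetracycline came nearest. Beyond its window the site was 14.3-fold lower (10.2 to 20.6), and 14.1-fold lower without tetracycline. It lies in a window whose median was higher in DNBrg1, at 0.34.

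A second site on that chromosome, chr4:84168911-84170318, had 208 in parental and 41.0 in DNBrg1 cells with tetracycline, and 191 and 27.0 without. It was 6.37-fold lower (4.97 to 8.27) beyond the same window median. At chr2:38537486-38538636, inside the lower block of chromosome 2, parental cells had 186 and DNBrg1 cells 16.4, the lowest density in the DNBrg1 list. It was 7.90-fold lower (5.41 to 11.99) after the block's shift was removed, and 11.2-fold lower before.

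Of the 8 largest lower sites in both lists, 4 were not listed in DNBrg1 cells without tetracycline. At chr6:112270493-112271301 the densities were 128 in parental and 19.3 in DNBrg1 cells with tetracycline, and 145 in parental cells without. At chr11:53832306-53833417 they were 236 and 39.8 with, and 201 in parental cells without tetracycline. These are strong sites in the parental line in both states. The other 2 were weaker in the parental library without tetracycline. At chr13:60308261-60309161 the parental density was 101 with and 49.2 without, and at chr17:12402146-12403009 it was 105 with and 19.8 without. In DNCHD4 cells the same sites had 89.3 and 19.0, and 96.1 and 23.5, so there too they were weaker without tetracycline.

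**Figure D4:**
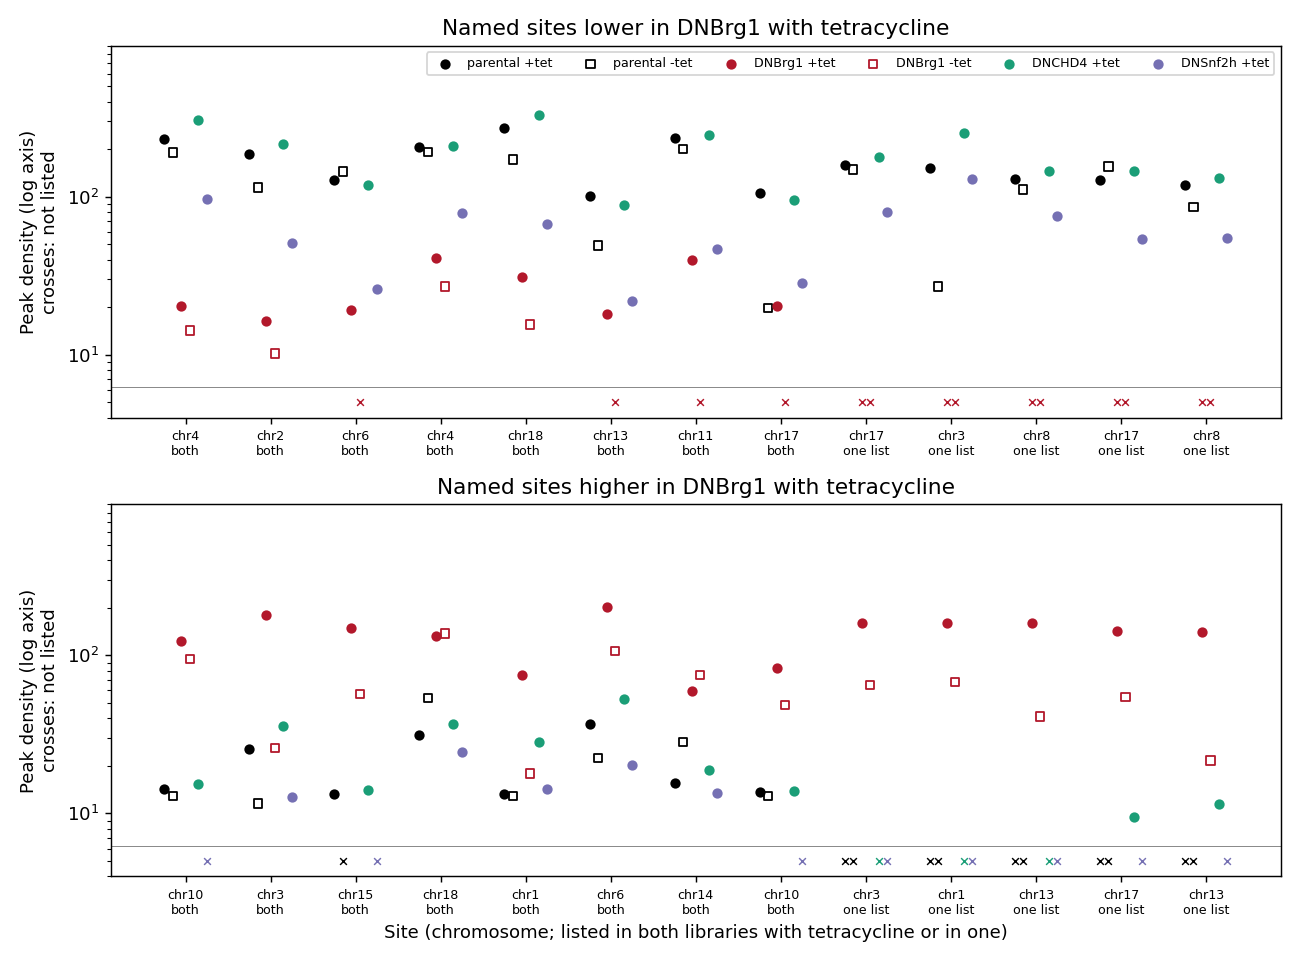
Peak density, on a log axis, at the 13 named lower (top) and the 13 named higher single-site differences (bottom), in 6 libraries. The 8 largest of both lists are on the left and the 5 of 1 list with the largest bounds on the right, all outside dense clusters. Crosses below the line mark libraries that do not list the site. In the top panel the parental and DNCHD4 points with tetracycline lie above every DNBrg1 point, and in the bottom panel the DNBrg1 point with tetracycline lies above the parental one.

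Among higher differences in both lists the largest was at chr10:15111545-15112605. Its density was 123 in DNBrg1 cells with and 94.9 without tetracycline, and 14.3 and 12.9 in parental cells. In DNCHD4 cells with tetracycline it was 15.4, near the parental level. It was 8.69-fold higher (6.29 to 12.2) beyond its window, and 7.99-fold higher without tetracycline. The site is thus close to the floor of the list in parental cells and well above the median hotspot in both DNBrg1 libraries.

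The next sites were less alike in the 2 tetracycline states. At chr3:136930468-136931332 DNBrg1 cells had 179 with but 26.0 without tetracycline, and parental cells 25.7 and 11.6. The ratio was 8.56-fold (6.69 to 11.04) with and 3.34-fold without. At chr15:48897247-48897952 DNBrg1 cells had 148 and 57.2, and parental cells 13.3 with tetracycline and no hotspot without, a ratio of 8.20-fold (5.92 to 11.6). At chr1:78645759-78646395 DNBrg1 cells had 74.99 with and 17.9 without tetracycline, and parental cells 13.3 and 12.9. So the DNBrg1 density at this site was well above the parental one only with tetracycline, in 1 library.

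At other sites the states were alike. The site at chr6:110070212-110070952 had 203 and 107 in DNBrg1 and 36.6 and 22.4 in parental cells, a ratio of 5.42-fold (4.38 to 6.74) with and 5.72-fold without tetracycline. The site at chr14:93461324-93462299 had 59.8 and 75.01 in DNBrg1 and 15.5 and 28.3 in parental cells. Its ratio of 5.396-fold (3.81 to 7.73) depends on the median of -0.47 that was subtracted. That is the median of the whole of chromosome 14, as the window of the site held too few shared sites. The nearest tested window, from 100 to 110 Mb, stood at 0.058. Before that it was 3.90-fold, and relative to its 20 nearest shared sites its log2 ratio was 1.82.

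Sites of 1 list gave differences of like size, as bounds. Of the sites in the parental list only and outside dense clusters, chr17:7873250-7874097 had the largest bound. Its density was 158 in parental cells with and 148 without tetracycline, with no hotspot in either DNBrg1 library. It was 179 in DNCHD4 and 80.3 in DNSnf2h cells with tetracycline. Against the lowest density of the DNBrg1 list the site was at least 9.54-fold lower. Its neighbour at chr17:7856485-7858046 had 128 and 155 in parental cells, and was at least 7.71-fold lower. The bound assumes that a stronger site would have been listed, and the numbering of the DNBrg1 hotspots skips 3 numbers in the interval that holds these sites.

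Of the 5 such sites with the largest bounds, 4 were strong in both parental libraries. They included chr8:15731217-15731863, with 130 and 111, and chr8:106188449-106189337, with 119 and 86.0. The exception was chr3:83543894-83544801, with 153 with and 27.0 without tetracycline in parental and 255 and 33.3 in DNCHD4 cells. The DNBrg1 numbering skips 10 numbers at the chr8:106188449-106189337 site and 3 at each of the other 4.

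On the other side, 5 sites at 140.6 to 160.5 in DNBrg1 cells with tetracycline were not listed in either parental library. The densest, chr3:148779801-148780893, had 160.5 with and 64.8 without tetracycline, and no other line listed it. It was at least 12.4-fold higher than the lowest density of the parental list. At chr1:142202760-142203442 the DNBrg1 densities were 160 and 67.9, and at chr13:83203427-83204300 they were 159 and 41.1. At all 5 sites the density was lower without tetracycline, by the deposited scale, and ranged there from 21.7 to 67.9. The parental numbering skips 4 to 16 numbers at these 5 positions, in intervals of 630 kb or more without a listed hotspot.

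Numbers were skipped more often on the higher side in general. Of the 597 higher sites listed in DNBrg1 only, 453 (75.9%) lay where the parental list skips a number, and of the 570 lower sites listed in parental cells only, 202 (35.4%) lay where the DNBrg1 list does. Over all intervals between listed hotspots the shares were 18.4% in the parental and 13.8% in the DNBrg1 list. Those are shares of intervals, and a long interval can hold many sites, so they are no base for the shares of sites. When every site of 1 list at a skipped number was left out, called or not, 32070 of the 38121 sites remained. The sources used here do not say what a skipped number stands for, and its part in these differences was not tested. With such sites left out, a setting also chosen after the data were seen, 1000 single-site differences were lower and 618 higher. The sites listed in both libraries do not depend on this.

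Single-site differences often lay near others of the same direction. A lower site had another lower one within 100 kb in 37.7% of cases, where 19.6% of the other sites had one. A higher site had another higher one within 100 kb in 28.9% of cases, against 11.7%. Runs were short: the longest series of neighbouring shared sites that were all single-site differences held 3 in each direction. With sites of 1 list included, groups of at least 3 within 200 kb of each other numbered 72 on the lower and 51 on the higher side. This count was added after the data were seen. Outside clusters of 15 or more hotspots within 100 kb there were 60 and 50.

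The largest lower group outside such clusters was on chromosome 17, from 7769927 to 8049347. It held 9 sites, at 35.6 to 158 in parental cells with tetracycline, all of them listed without tetracycline and in DNCHD4 cells, and none in either DNBrg1 library. Around it, from 7582967 to 8050294, 21 parental hotspots lay in a stretch of 682 kb free of DNBrg1 hotspots in both tetracycline states. The same stretch held 28 hotspots in DNCHD4 and 13 in DNSnf2h cells with tetracycline. The DNBrg1 numbering skips 3 numbers there with and 1 without tetracycline, fewer than the parental hotspots present. The window around it, from which these sites were judged, had a median of 0.12.

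Shorter stretches of this kind were found at 5 other places. On chromosome 13, from 56452286 to 56563789, 6 parental hotspots at 23.9 to 63.2 had no DNBrg1 counterpart, and 8 hotspots were listed in DNCHD4 cells. On chromosome 4, from 140881488 to 140903825, 3 parental hotspots at 39.4 to 71.6 likewise had no DNBrg1 counterpart, and no DNBrg1 number was skipped in either state. Lower groups of mixed listing occurred on chromosome 5, from 114056785 to 114426411, and on chromosome 1, from 135582116 to 135936496, with 7 sites each. In the chromosome 1 group 6 of the 7 sites were still listed in DNBrg1, at 17.6 to 91.4 against 36.0 to 279 in parental cells.

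**Figure D5:**
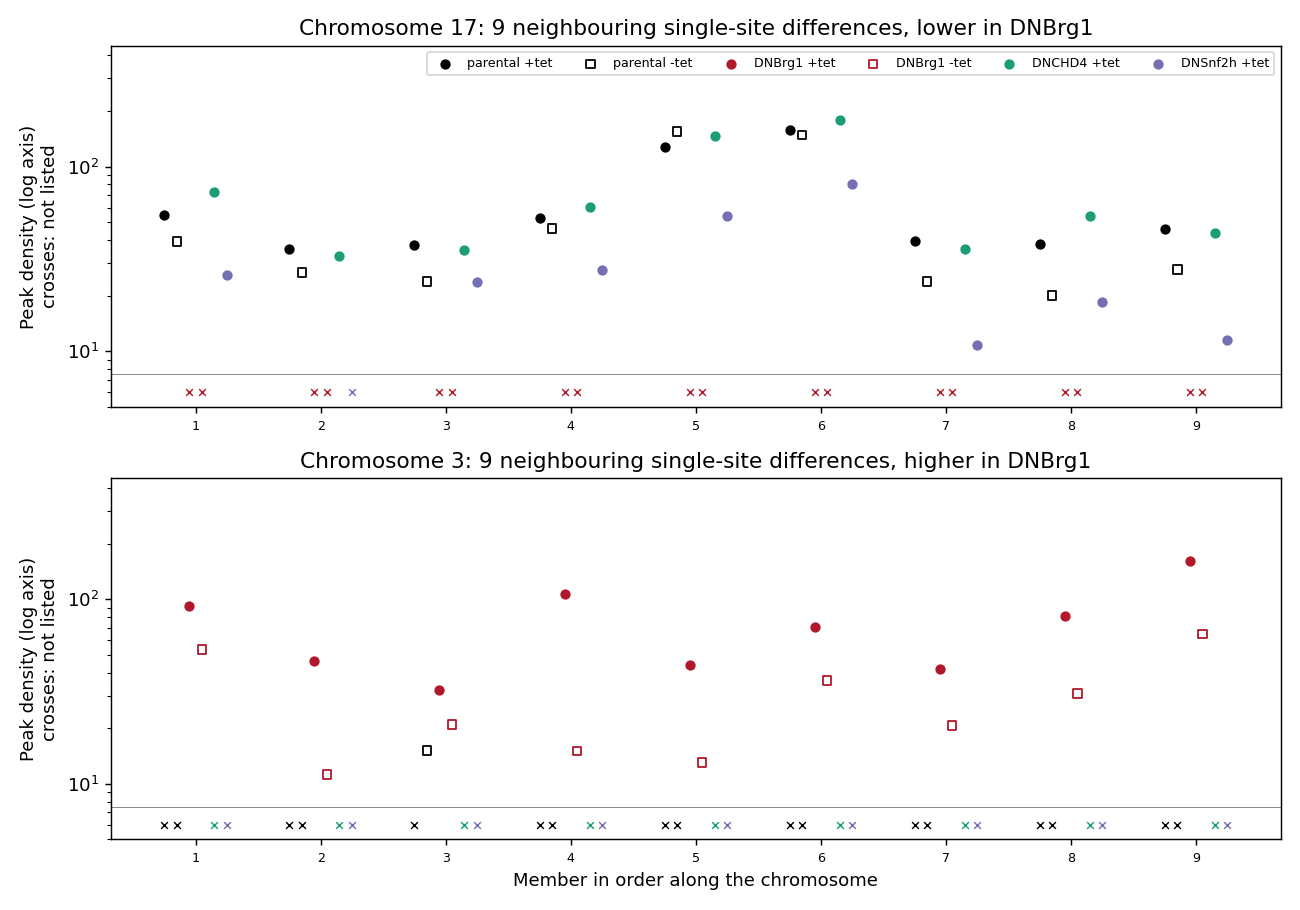
Peak density, on a log axis, at the 9 sites of the largest lower group on chromosome 17 (top) and the 9 sites of the largest higher group on chromosome 3 (bottom), in order along the chromosome, in 6 libraries. Crosses below the line mark libraries that do not list the site. The top group has parental and DNCHD4 points at every site and no DNBrg1 point, and the bottom group has DNBrg1 points at every site and 1 parental point.

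The largest higher group, on chromosome 3 from 148043831 to 148780893, held 9 sites at 32.2 to 160.5 in DNBrg1 cells with tetracycline, all listed without it at 11.2 to 64.8. None was listed in parental or DNCHD4 cells with tetracycline, and 1 was listed in parental cells without it, at 15.2. It overlaps a longer stretch, from 148303368 to 150781268, with 19 hotspots in each DNBrg1 library and none in either parental library. DNCHD4 cells listed none there with tetracycline and 36 without, at 5.09 to 7.83, which is below the lowest density of both lists compared here. DNSnf2h cells listed 3 with and 25 without, at 8.06 to 10.64, also below it. The parental numbering skips 13 numbers in it with and 10 without tetracycline.

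There were 30 stretches with DNBrg1 hotspots and no parental ones, against 6 of the reverse kind. In all of the 30 but the last one named below, the parental numbering skips 1 to 28 numbers with tetracycline. In the 6 reverse ones the DNBrg1 numbering skips 0 to 6. The part of skipped numbers in this contrast was not tested. On chromosome 17, from 90053656 to 91616251, 9 hotspots at 18.2 to 61.5 were listed in DNBrg1 cells with and 14 without tetracycline. On chromosome 1, from 67107982 to 70222857, 15 were listed with and 17 without. Other lines listed weak hotspots in both stretches, at 11.95 or less. Without tetracycline these were 26 in DNCHD4 and 18 in DNSnf2h cells on chromosome 17, and 41 and 21 on chromosome 1. With tetracycline they were 0 and 2 on chromosome 17, and 1 and 3 on chromosome 1. The parental numbering with tetracycline skips 8 numbers in the chromosome 17 stretch and 7 in the chromosome 1 stretch. A higher group of 7 sites on chromosome 4, from 64848154 to 65158071, differed from these in that 2 of its sites were also listed in parental cells, at 29.4 and 32.2, where DNBrg1 cells had 88.5 and 183. On chromosome 19, from 10060333 to 10066272, 3 hotspots at 27.0 to 31.1 had no parental counterpart, and no parental number was skipped in either state. DNCHD4 cells listed 1 hotspot there with tetracycline, at 15.7, and 2 without.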

How the data were processed

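DNase-seq libraries of 8 groups (4 lines, each with and without tetracycline) have 1 library each, and groups were taken from the labels. The submitters' processing notes name CASAVA 1.6 and mm9. Not given in the sources used here are the hotspot caller, its filters and the scaling target. For each hotspot the authors deposited 2 signal columns, its highest and its mean tag density. The deposited lists also hold a score (a z-score) and a p-value per hotspot, neither of which was used.

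Lists were merged, centred and placed in windows of 10 Mb with at least 20 shared sites, using Python 3.11.15, numpy 2.4.6, pandas 2.3.3 and scipy 1.17.1. Peak densities were divided by the step of their library (whole within 0.05 tags). A block is at least 2 neighbouring windows past 0.3 of 1 sign, and a window with fewer than 20 shared sites ends it. For the single-site differences, sites in such a sparse window were centred on the median of their chromosome. Clusters of 15 or more hotspots of 1 list within 100 kb were kept but left out of the naming. The named sites are the 8 largest single-site differences of both lists and the 5 of 1 list in each direction. Those of 1 list were ranked by their bound against the lowest density that the other list holds within 50 kb, or its list minimum where it holds none. The calling steps were tested on simulated data, in which the single sites changed were dense ones, changed by more than the 2-fold limit. Recovery of weak sites or of changes near that limit was not tested. The members and lists were chosen with earlier results of these data known. No genome or annotation of mm9 was at hand, so sites carry no gene names or sequences, and the gene lists and cell type markers planned for this comparison were not used here.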

Additional observations from a re-analysis of the deposited data

How the results depend on the processing

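No paired analysis was possible because each group has 1 library, and title numbers only mark the tetracycline state. Counts are given in the order 2-fold lower, 2-fold higher, single-site lower, single-site higher. They were 5193, 4886, 3483 and 3706 at 1.5-fold and 373, 314, 257 and 231 at 3-fold. They were 548, 297, 360 and 206 with both lists kept only above 2 times the higher list minimum. With sites of both lists alone they were 1049, 694, 632 and 474. With mean in place of peak density they were 10308, 3899, 9866 and 3672, because the lists do not start at a fixed mean density and the bound then does not hold. With mean density at sites of both lists, chosen after seeing the data, they were 1078, 781, 682 and 556. Leaving out sites of 1 list at a skipped hotspot number, also chosen afterwards, left 1000 single-site lower and 618 higher. The share of 2-fold sites in blocks was 21.2%, and it was 22.8% as deposited, 24.5% when centred in 20 density bins and 18.2% with mean density. The median log2 ratio turned from -0.015 to 0.022 with mean density, and was -0.053 and -0.064 with both lists kept above the higher minimum and above 2 times it.

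Lower and higher windows numbered 67 and 27 at 5 Mb and 24 and 8 at 20 Mb. Higher windows numbered 34 at a shift of 0.2, and at 0.5 there were 22 lower and 0 higher. With only sites of at least 40 in DNCHD4 cells with tetracycline, chosen after seeing the data, there were 5 higher and 45 lower windows. The other 55 values of counts, shares and medians moved by less than 1.5 times or than their interval. Block medians kept their sign under every setting run, and 75 values stayed within their interval while 13 moved, to between -0.64 and 0.36. Of the values of named sites 207 were classed as unmoved and 1 as moved, to 1.82. For the sites of 1 list that class says little. Their main value is a bound before the window median is subtracted, and the other settings were read after it. With mean density, where the bound does not hold, the log2 value of chr17:7873250-7874097 went from -3.254 to -5.414 and was still classed as unmoved. The depth of the DNBrg1 library, with 28 tags at its lowest hotspot, limits weak sites. With 1 library per line and state, line and library cannot be told apart. A window with fewer than 20 shared sites can split or hide a block.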
